A study of Mus musculus with 6 samples.

Results

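As4.1 is a clonal mouse kidney tumour line, derived from cells that carried a viral T antigen under a renin promoter, and it is used as a model of the renin-producing juxtaglomerular cell. The comparison described here is of 2 arrays from cultures given hydrogen peroxide with 2 arrays from cultures given vehicle, of 6 arrays in all. They were chosen by sample title. Each array came from a separate culture of the line, so p-values measure the spread between cultures of 1 clone. The other 2 arrays came from cultures treated with an interleukin that the labels do not identify further. The labels give no concentration of peroxide, no exposure time and no composition of the vehicle, and name no other treatment of any group. Total RNA was hybridised to mouse whole-genome expression arrays on which each probe set reports the RNA of 1 gene or transcript as a signal in arbitrary units.

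Hydrogen peroxide is a small oxidant that crosses membranes, oxidises protein thiols and, with iron, damages DNA. DNA damage stabilises p53, a transcription factor that switches on genes for cell cycle arrest, apoptosis and repair, while oxidised KEAP1 releases NRF2, which switches on glutathione and thioredoxin genes. ATF4, a factor made when translation initiation is slowed by stress, switches on amino acid synthesis and transport, and SREBP2 keeps cholesterol synthesis genes on when sterols are scarce.

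Of 45037 probe sets that are not controls, 22519 were tested, those at or above the median mean log2 signal, and they covered 10892 named genes (each read from its brightest probe set). A probe set was called at an adjusted p under 0.05 (limma with Benjamini-Hochberg adjustment over all tested probe sets). Hydrogen peroxide changed 1282 probe sets, 5.69% of those tested, with 686 higher (3.05%) and 596 lower (2.65%). By gene, 761 were called (6.99%), with 444 higher (4.08%) and 317 lower (2.91%). Rises reached further than falls: 127 called genes were at least 2-fold higher and 36 at least 2-fold lower, and 19 were at least 4-fold higher and 0 at least 4-fold lower. Among the 3631 dimmest genes 144 rose and 31 fell, whereas among the 3631 brightest 143 rose and 204 fell. The median log2 change over all genes was 0.06. The signals of the 2 groups did not overlap for 59.5% of genes, with both peroxide arrays above in 36.5% and below in 23.0%, so non-overlap alone marks most genes. Between peroxide and interleukin arrays 8.82% of probe sets were called. Centring each array on its 75th percentile gave 602 probe sets higher and 879 lower in place of 686 and 596. The count depended on each of the 4 compared arrays and on the variance model. Without vehicle array 1 it was 242, without vehicle array 2 it was 264, without peroxide array 1 it was 388 and without peroxide array 2 it was 671, and a fit with no dependence of variance on signal called 57, with 4433 probe sets at an unadjusted p under 0.05 where the fit used here had 5034.

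**Figure D1:**
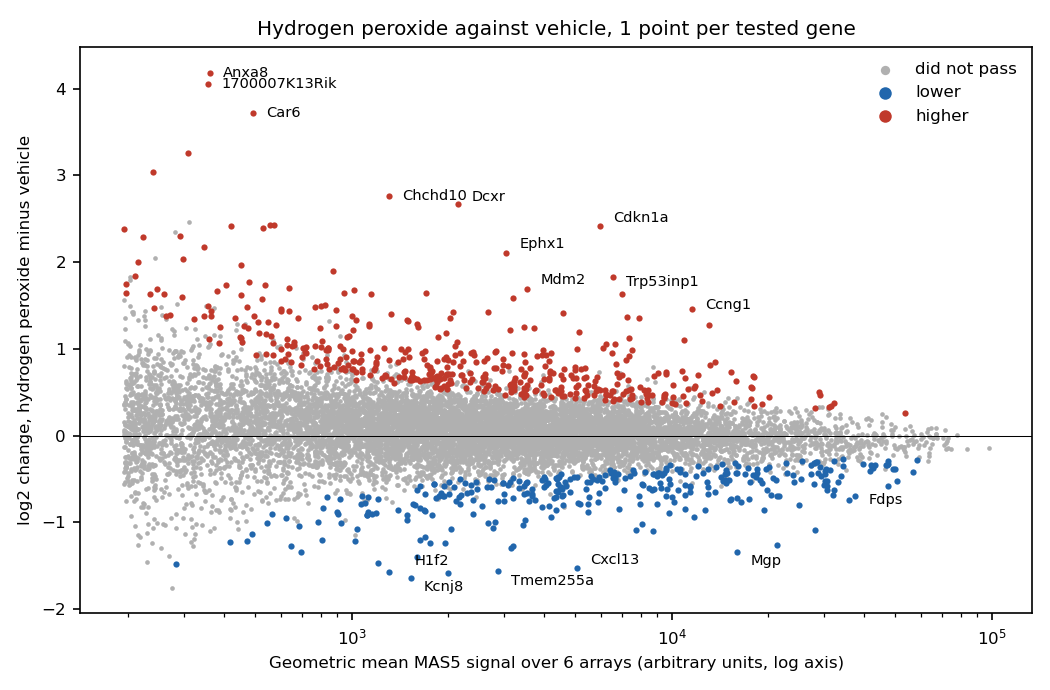
Each point is 1 of 10892 tested genes, with the geometric mean signal over 6 arrays on a log x axis and the log2 change with hydrogen peroxide on the y axis. Red points were called higher (444), blue points lower (317) and grey points did not pass; the rises of over 4-fold lie mostly at low signal, while many falls are of bright genes such as Fdps and Mgp.

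Signals of mesenchymal and pericyte markers were mixed. Vim, an intermediate filament gene of mesenchymal cells, lay between 52132 and 56349 on the 4 compared arrays, and Pdgfrb, the pericyte growth factor receptor, between 7956 and 10045. Of 13 such markers on the array 5 were too dim to test: Gja4, Rgs5, Des, Mef2c and Gja5. Gja5, the connexin of juxtaglomerular cells, was near 0 with 5.2 to 9.1, while Rgs5, a pericyte marker, lay between 91.8 and 186. Renin itself was not analysed here. Of 10 endothelial markers 9 were too dim to test, the exception being Kdr, and of 12 epithelial and tubule markers on the array 10 were too dim. Summed over 12 leukocyte markers, the signal was 4355 and 4299 with vehicle and 5220 and 4957 with peroxide, and Cd68 alone of the 4 testable members rose. Ptprc, the pan-leukocyte gene CD45, lay between 21.3 and 67.3 on the 4 arrays. Its part in other results was not tested. The 4 arrays had the same scaled mean, and correlations of log2 signal were 0.987 between the vehicle arrays and 0.984 between the peroxide arrays.

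Target genes of p53 rose with hydrogen peroxide. Of 78 genes on the list, 72 were on the array, 4 were too dim and 68 were tested. Of these, 21 rose and 1 fell, against the 4.08% and 2.91% of all genes given above. The list's median log2 change was 0.39 against 0.06 for all genes. Without each of the 4 arrays in turn 14 to 16 members rose, and 9 rose without the variance trend. The rises were spread over all 6 roles into which the list was divided, from arrest and feedback to repair and secreted factors.

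Cdkn1a, which encodes the cyclin-dependent kinase inhibitor p21, gave signals of 2556 and 2547 with vehicle and 13343 and 13796 with peroxide. Its 5.32-fold rise had the smallest p of all probe sets (log2 2.41, SE 0.098, adjusted p 3.02e-06). Ccng1, a cyclin-like gene that feeds back on p53, went from 7664 and 7397 to 21020 and 20406, a 2.75-fold rise (adjusted p 0.000316). Btg2, an antiproliferative gene, went from 1161 and 1239 to 2322 and 2330 (log2 0.96, adjusted p 0.0167). For all 3 genes both peroxide arrays stood well clear of both vehicle arrays. Gadd45a, a growth arrest gene, did not pass, with 7663 and 6755 against 8005 and 8152 (log2 0.17, adjusted p 0.381).

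The feedback genes that restrain p53 rose too. Mdm2, the ubiquitin ligase that degrades p53, had 2119 and 2144 with vehicle and 6460 and 7336 with peroxide, a 3.23-fold rise (adjusted p 0.000128). Its relative Mdm4 went from 1282 and 1456 to 2070 and 2773 (log2 0.81, adjusted p 0.0267), although a second Mdm4 probe set gave 0.07 (adjusted p 0.922). Trp53inp1, a p53-induced nuclear protein, rose 3.54-fold from 3499 and 3734 to 12260 and 13383. Ppm1d, the phosphatase that dampens damage signalling, did not pass (log2 -0.19, adjusted p 0.43).

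Of 15 tested apoptosis genes on the p53 list 7 rose, 0 fell and all 15 had a change above 0. Eda2r, a death receptor of the TNF receptor family, went from 301 and 279 to 1527 and 1585. Aen, a nuclease of apoptotic DNA breakdown, went from 1039 and 957 to 2485 and 2483 (log2 1.32, adjusted p 0.00125). Bbc3, the BH3-only gene also called PUMA, was dim with vehicle at 239 and 147 and reached 509 and 542 with peroxide (log2 1.49, SE 0.30, adjusted p 0.02). The vehicle values of Bbc3 lay further apart than its peroxide values, and the vehicle geometric mean was under 194, the lowest tested. Pmaip1, the BH3-only gene NOXA, had 149 and 130 against 387 and 399 and missed the threshold (log2 1.50, 95% interval 0.63 to 2.36, adjusted p 0.0519). Phlda3, Zmat3, Ei24 and Bid also rose, by 1.70-fold, 2.00-fold, 1.46-fold and 1.80-fold. In the separate list of 25 Bcl2 family and caspase genes, Bid was the 1 that rose and none fell.

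Of 7 repair and nucleotide supply targets 2 rose, and of 10 metabolic targets 1. Polk, a translesion DNA polymerase, went from 719 and 645 to 1477 and 1695 (log2 1.22, adjusted p 0.00385). Rrm2b, the p53-inducible ribonucleotide reductase subunit, went from 1342 and 1248 to 2013 and 2057 (log2 0.65, adjusted p 0.0302). Xpc, a nucleotide excision repair sensor, did not pass (log2 0.16, adjusted p 0.59). Sesn2, a sestrin that restrains mTORC1, had 1188 and 1391 against 1705 and 2273 (log2 0.61, adjusted p 0.193). Dcxr, a carbonyl reductase, was that metabolic gene, at 867 and 794 against 5454 and 5125. Psrc1, Ptprv, Ptp4a3 and Pltp rose by 2.69-fold, 2.73-fold, 2.21-fold and 2.42-fold. Pcna, a sliding clamp of replication forks that is also a p53 target, was the 1 that fell, from 56973 and 57556 to 44050 and 43880 (log2 -0.38, adjusted p 0.0106). Read against the interleukin arrays, 21 of the 68 tested targets were higher with peroxide and 7 lower, where 4.06% and 6.30% of all genes were. Cdkn1a was 1.15 log2 units above its level with interleukin (adjusted p 5.07e-05) and Eda2r 1.90 log2 units above (adjusted p 0.00025).

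**Figure D2:**
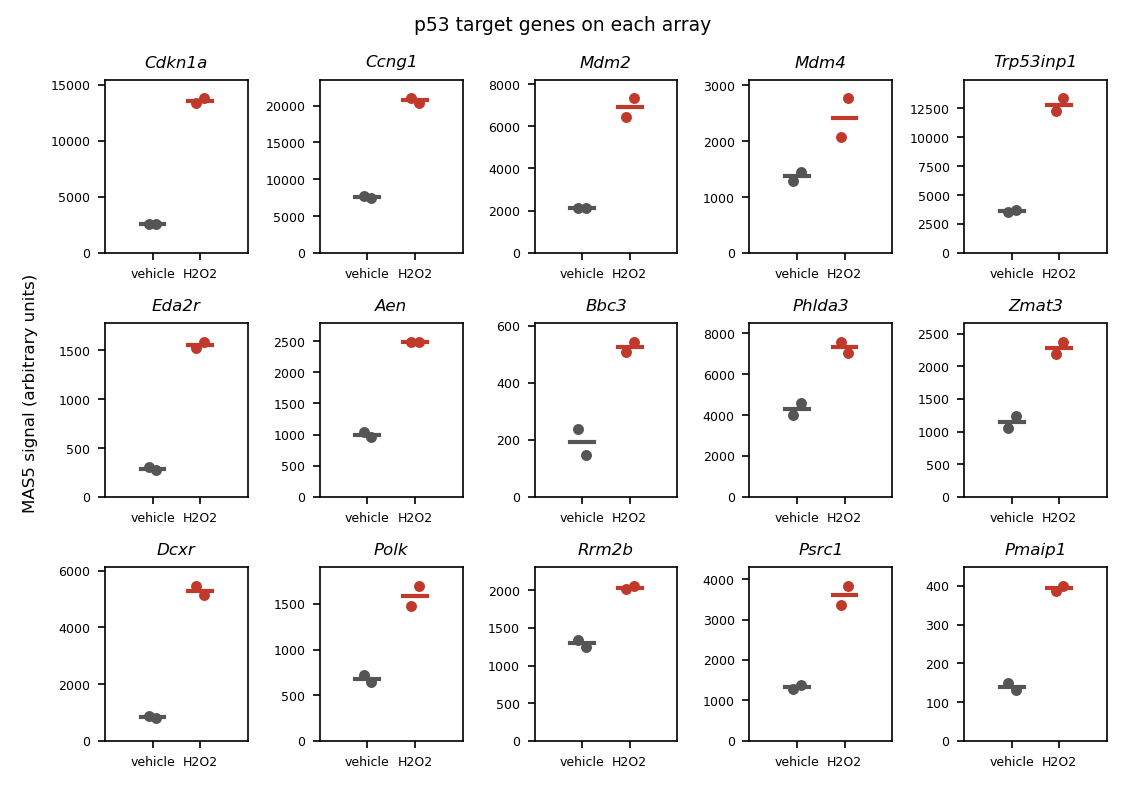
MAS5 signal (arbitrary units, linear axes from 0) of 15 p53 target genes on the 2 vehicle arrays (grey) and the 2 hydrogen peroxide arrays (red), with a line at each group's mean. In every panel both red points lie above both grey points; Cdkn1a, with means of 2551 and 13569, is the most tightly separated, and Pmaip1 is the panel that missed the threshold.

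Sequences before the start of the genes that rose are shown to place the p53 response element. It was searched for by name as 2 adjoining half-sites with at most 2 mismatches, on either strand, in the 300 bases from 250 before to 50 after each RefSeq start (GRCm38.p6). Of the 21 genes that rose, 16 had a sequence, and 2 of them (12.5%) held the element, as did 2 of 41 other listed genes (4.88%) and 0.392% of 27025 genes. In Cdkn1a it lay 51 to 32 bases before the start, within chr17:29090888-29090978 on the plus strand, and in Ccng1 195 to 176 bases before the start, within chr11:40755422-40755521 on the minus strand. Each is printed in the direction of the gene with the element in capitals.
Cdkn1a: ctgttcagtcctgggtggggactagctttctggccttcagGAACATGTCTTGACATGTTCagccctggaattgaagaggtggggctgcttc
Ccng1: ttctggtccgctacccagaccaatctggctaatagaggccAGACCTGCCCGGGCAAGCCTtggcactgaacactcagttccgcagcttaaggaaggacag
A match describes these letters and is no measure of binding. Both genes rose, as did 14 others with no match in this window.

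Genes of the ATF4 response, which raise the supply of amino acids and charged tRNA, rose as a second group. Of 42 listed, 41 were tested, 16 rose and 1 fell, against 4.08% and 2.91% of all genes, with a median log2 change of 0.38. The same shares stand beside the counts by role that follow. These calls depended on each array: without 1 of the 4 compared arrays 0 to 7 rose, and 0 rose without the variance trend. The factor's own RNA was flat, with Atf4 at 21500 and 22740 with vehicle and 21793 and 21487 with peroxide (log2 -0.03, 95% interval -0.23 to 0.17).

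Serine, asparagine and one-carbon genes moved together, with 5 of 7 higher. Asns, asparagine synthetase, went from 3654 and 4033 to 11147 and 12740, a 3.10-fold rise (SE of log2 0.25, adjusted p 0.00594). Phgdh, the first enzyme of serine synthesis, went from 5157 and 5023 to 12494 and 13486 (2.55-fold, adjusted p 0.0155). Aldh1l2, a mitochondrial folate enzyme, rose 2.59-fold, and Shmt2 and Psph, which make glycine and serine, rose 1.58-fold and 1.47-fold. Psat1, the transaminase between Phgdh and Psph, had 13914 and 14497 against 18542 and 19857 and did not pass (adjusted p 0.0706). On all these genes both peroxide arrays exceeded both vehicle arrays.

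Of 8 amino acid transporters on the ATF4 list 3 rose and 1 fell. Slc7a3, a cationic amino acid carrier, went from 258 and 312 to 782 and 975 (3.08-fold). Slc7a5, which imports large neutral amino acids, went from 2872 and 3872 to 6227 and 6642 (1.93-fold), and Slc6a9, a glycine carrier, from 1267 and 1470 to 2480 and 2700 (1.90-fold). Slc38a2, a neutral amino acid carrier, fell from 34263 and 34043 to 25398 and 26559 (log2 -0.40, adjusted p 0.0112). Slc7a11, the cystine importer that feeds glutathione synthesis, had 159 and 228 against 295 and 457 and did not pass (adjusted p 0.138). Of 12 aminoacyl-tRNA synthetases 4 rose, namely Eprs1, Lars1, Gars1 and Sars1, by 1.27-fold to 1.44-fold.

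Among the factors and feedback genes downstream of ATF4, Ddit3, which encodes the stress factor CHOP, went from 2632 and 2604 to 4386 and 5023 (log2 0.84, adjusted p 0.00526). Atf5, a related factor, went from 8630 and 10122 to 15477 and 14792. Trib3, a pseudokinase that damps the response, went from 1374 and 1166 to 2716 and 2861 (2.20-fold), and Chac1, which breaks down glutathione, from 1834 and 1461 to 2691 and 3226 (adjusted p 0.0492). Atf3 did not pass (log2 0.47, adjusted p 0.227). Endoplasmic reticulum chaperones, the output of the neighbouring unfolded protein arms, did not move as a group. Of 25 tested 0 rose and 1 fell (Edem1, a gene for disposal of misfolded glycoproteins), with a median of 0.0010. Over all genes 4.08% rose and 2.91% fell. Hspa5, the main chaperone there, had 40816 and 44507 against 40719 and 42310 (log2 -0.04, 95% interval -0.23 to 0.15).

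The composite element of ATF4 and C/EBP factors was searched as TGATGNAA on both strands. It lay in 4 of the 12 called genes with a sequence (33.3%), in 10 of 22 other listed genes (45.5%) and in 4.51% of all promoters. The called genes that rose most and least among those matches are shown, Asns within chr6:7693210-7693272 on the minus strand and Gars1 within chr6:55037931-55038000 on the plus strand, with the element in capitals (its reverse complement in Gars1).
Asns: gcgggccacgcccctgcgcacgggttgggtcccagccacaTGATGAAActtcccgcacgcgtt
Gars1: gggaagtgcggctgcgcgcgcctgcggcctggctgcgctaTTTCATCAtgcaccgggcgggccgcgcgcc
The element was no rarer among listed genes that did not rise than among those that did.

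Interferon-stimulated genes, many of them antiviral, also rose. Of 34 tested 13 rose and 0 fell, against 4.08% and 2.91% of all genes. A change above 0 was seen in 33, and the median was 0.57 against 0.06 for all genes. Without 1 of the 4 arrays 3 to 7 rose, and 0 rose without the variance trend. Irf9, the DNA-binding subunit of the interferon-activated complex, went from 1623 and 1518 to 3514 and 3816 (2.33-fold, adjusted p 0.00219). Irf7, which amplifies the response, went from 1919 and 2223 to 4327 and 3237. Oas1a, an antiviral sensor of double-stranded RNA, went from 3464 and 3323 to 7141 and 6291 (1.98-fold, adjusted p 0.00112). Ifit3, an antiviral RNA-binding partner, went from 1286 and 1208 to 2861 and 3069 (2.38-fold). Rtp4, Usp18, Xaf1, Rigi and Rsad2 also rose, by 1.58-fold to 1.65-fold, as did the immunity GTPases Iigp1, Irgm1 and Igtp. Of 10 antigen presentation genes H2-D1 alone rose, 1.25-fold, and 2 of its 7 other tested probe sets also passed. These levels stayed below those with interleukin, where 25 of 34 were higher than with peroxide and 0 lower. Of all genes 6.30% were higher with interleukin than with peroxide and 4.06% lower. Iigp1, for example, was 2.40 log2 units lower with peroxide than with interleukin (adjusted p 3.6e-06).

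The interferon response element was searched as GAAA, any 2 bases and GAAA, on both strands. It lay in 6 of 10 called genes with a sequence (60%), in 9 of 19 other listed genes (47.4%) and in 3.99% of all promoters. Examples from an antiviral gene and a GTPase are shown, Oas1a within chr5:120907526-120907585 on the minus strand and Igtp within chr11:58199482-58199555 on the plus strand. In Oas1a a second match overlaps the one in capitals.
Oas1a: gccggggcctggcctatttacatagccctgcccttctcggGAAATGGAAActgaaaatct
Igtp: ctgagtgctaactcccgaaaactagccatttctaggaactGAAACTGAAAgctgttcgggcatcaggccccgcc
Oas1a and Igtp rose by 1.98-fold and 1.53-fold.

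Some NRF2 targets rose. Of 49 tested genes of the NRF2, glutathione and thioredoxin list 5 rose (10.2%, against 4.08% of all genes) and 0 fell, with a median of 0.24. With adjustment over 1 probe set per gene, 769 of all 10892 genes were called higher and 501 lower. Of the list, 19 were higher and 3 lower at an unadjusted p under 0.05, which 5034 of all 22519 probe sets reached. Adjusting over 1 probe set per gene called 10 higher and 1 lower, and 2 or 3 rose without 1 of the 4 arrays. Ephx1, microsomal epoxide hydrolase, was the steepest, from 1552 and 1596 to 6536 and 7043 (4.31-fold, adjusted p 2.02e-05), and it also stands on the p53 list. Gsto1, an omega-class glutathione transferase, went from 7565 and 7100 to 15874 and 15563 (2.14-fold, adjusted p 0.000316). Hmox1, haem oxygenase, went from 2042 and 2100 to 3344 and 3272 (1.60-fold, adjusted p 0.0112), and Ptgr1, an NADPH-dependent reductase, rose 1.59-fold. The fifth was Chac1, which breaks down glutathione and is counted among the ATF4 genes above as well. The genes most often used as NRF2 readouts did not pass: Nqo1 (log2 0.55, adjusted p 0.135), Gclc (-0.14, 0.567) and Gclm (0.19, 0.383). Nqo1 had 803 and 708 with vehicle and 1281 and 952 with peroxide, so the groups were apart but the peroxide arrays were uneven. Nfe2l2, which encodes NRF2, and Keap1 did not pass, at -0.21 and 0.27. No match to the antioxidant element TGACNNNGC, searched on both strands, was found in the 4 called genes with a sequence, while 10 of 39 other listed genes (25.6%) and 14% of all promoters held one.

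Of 19 genes for making or removing peroxide and superoxide or for repairing oxidised methionine, 1 rose (5.26%) and 2 fell. Over all genes 4.08% rose and 2.91% fell. Cyba, a membrane subunit of NADPH oxidase, went from 424 and 269 to 843 and 667 (2.22-fold, adjusted p 0.0297). Sod3, the secreted superoxide dismutase, fell from 11300 and 9699 to 7050 and 5824 (log2 -0.71, adjusted p 0.00799), and Gpx3, the secreted glutathione peroxidase, from 42546 and 43941 to 36625 and 31986 (log2 -0.34, adjusted p 0.0361). Catalase, Cat, had 4621 and 4172 against 5537 and 5255 and did not pass (adjusted p 0.179). Sod2 (0.11) and Gpx1 (-0.19) did not pass either. Among heat shock genes the small chaperones Cryab and Hspb1 rose 1.99-fold and 1.71-fold and 24 of 26 members did not pass. The mitochondrial chaperones Hspa9 (0.51, adjusted p 0.0511), Hspd1 (0.32, 0.0531) and Hspe1 (0.38, 0.0547) did not pass by their brightest probe sets, although 1 of 3 other Hspa9 probe sets did (0.72, adjusted p 0.0101). With quantile normalization 5 heat shock genes rose and with the replicate block 4. By the same limma test 0 of 11 metallothionein and zinc transport genes passed, and Mt1 stood at 0.31 (adjusted p 0.356). At an unadjusted p under 0.05, 1 was higher and 2 lower, where 5034 of all 22519 probe sets passed in either direction.

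**Figure D3:**
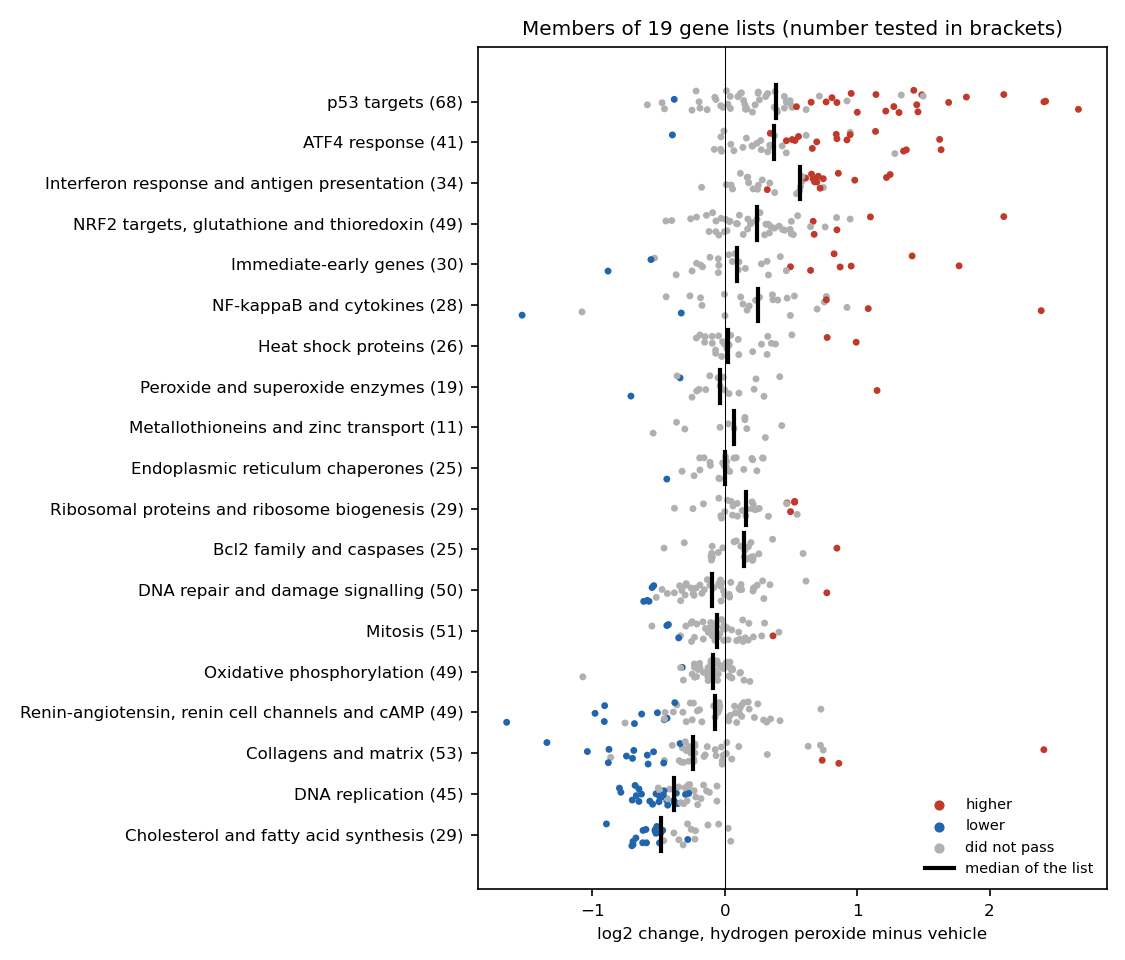
Each point is the log2 change (hydrogen peroxide minus vehicle) of 1 tested member of 19 gene lists, red where called higher, blue where called lower and grey where it did not pass, with the number tested in brackets and a black bar at the list's median. The p53 list reaches furthest to the right, the interferon list has the highest median (0.57), and all 45 DNA replication genes lie below 0.

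Cholesterol and fatty acid synthesis genes were lower. Of 29 tested 17 fell and 0 rose, against 2.91% and 4.08% of all genes, with a median log2 change of -0.48. Without 1 of the 4 arrays 4 to 10 fell, and 0 fell without the variance trend. The fall covered 12 of 18 cholesterol genes. Fdps, which makes farnesyl pyrophosphate, went from 44726 and 45180 to 29621 and 26115 (1.62-fold lower, adjusted p 0.0013). Idi1, the isomerase one step earlier, went from 27845 and 26058 to 17779 and 15634 (1.62-fold lower). Hmgcs1, which commits acetyl units to the mevalonate pathway, went from 33819 and 34339 to 24289 and 23289 (1.43-fold lower, adjusted p 0.00434). Cyp51, Nsdhl, Fdft1, Msmo1, Tm7sf2, Hsd17b7 and Dhcr7, enzymes from squalene synthesis to cholesterol, fell by 1.43-fold to 1.63-fold, as did the regulator Insig1 (1.54-fold) and the sterol carrier Stard4 (1.40-fold). Srebf2, which encodes SREBP2 itself, fell from 10279 and 11332 to 7247 and 6834 (1.53-fold lower, adjusted p 0.00974). Sqle, the squalene epoxidase, did not pass (log2 -0.35, adjusted p 0.0875).

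On the fatty acid branch 4 of 8 fell. Elovl6, which elongates long-chain fatty acids, went from 12309 and 13714 to 7288 and 6715 (1.86-fold lower, adjusted p 0.00219). The desaturases Scd1, Scd2 and Fads2 fell 1.38-fold, 1.21-fold and 1.41-fold. Fasn, fatty acid synthase, had 12867 and 16042 against 11496 and 11619 and did not pass (adjusted p 0.118). Compared with the interleukin arrays, 16 of the 29 genes were lower with peroxide and 0 higher, where 6.30% and 4.06% of all genes were. The sterol element, searched as TCACNCCAC on both strands, lay in 1 of 12 called genes with a sequence (8.33%) and in 1.44% of all promoters. That gene was Hmgcs1, within chr13:119690174-119690262 on the plus strand, shown because it commits carbon to the pathway.
Hmgcs1: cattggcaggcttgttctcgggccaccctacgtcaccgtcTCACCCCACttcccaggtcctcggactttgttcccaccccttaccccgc

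DNA replication genes fell. Of 45 tested 24 fell and 0 rose, against 2.91% and 4.08% of all genes. All 45 had a change below 0 with MAS5, quantile and 75th percentile scaling. The median was -0.38 against 0.06 for all genes. The falls were shallow, at most 1.74-fold among called members, and 3 to 9 fell without 1 of the 4 arrays and 0 fell without the variance trend. Of 12 origin licensing genes 8 fell. Mcm4, a subunit of the replicative helicase, went from 25102 and 26188 to 16646 and 16524 (1.55-fold lower, adjusted p 0.00236), and Mcm2, Mcm5, Mcm6 and Mcm7 fell by 1.29-fold to 1.43-fold. Mcm3 did not pass (log2 -0.26, adjusted p 0.0934). Cdc6, which loads the helicase, went from 8029 and 8595 to 5121 and 5343 (1.59-fold lower). In RNA from whole cultures, fewer cells in S phase and less of these RNAs per cell cannot be told apart.

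At the fork, Rfc3, a subunit of the clamp loader, went from 8466 and 7679 to 4719 and 4577 (1.74-fold lower, adjusted p 0.00274). Lig1, which joins Okazaki fragments, fell 1.62-fold, and Pold1, Pole and Prim1, catalytic subunits of polymerases delta and epsilon and of primase, fell 1.41-fold, 1.39-fold and 1.28-fold. Rrm1, the large subunit of ribonucleotide reductase, went from 18796 and 19372 to 10823 and 13164 (1.60-fold lower, adjusted p 0.0105), while Rrm2b rose as given above and Rrm2, the S-phase subunit, fell 1.21-fold. Uhrf1 and Chaf1b, which handle methylation and histones behind the fork, fell 1.57-fold and 1.72-fold. H1f2, a linker histone, fell 2.46-fold from 5086 and 4970 to 2163 and 1934.

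Genes of entry into S phase did not follow a single direction, and few mitotic genes passed. Ccnd1, cyclin D1, rose 3.71-fold from 488 and 570 to 1918 and 1997 (adjusted p 0.000569). Ccne2, cyclin E2, fell 1.53-fold from 8448 and 6022 to 4876 and 4440, and the repressors E2f7 and E2f8 fell 1.64-fold and 1.58-fold. Of 51 mitotic genes 3 fell (Mad2l1, Kif23 and Mki67) and 1 rose (Nek2), where 2.91% of all genes fell and 4.08% rose. The median was -0.06. Cdk1 (-0.12), Plk1 (-0.16) and Top2a (-0.11) did not pass. Against interleukin, 20 of the 51 mitotic genes were higher with peroxide and 0 lower, where 4.06% and 6.30% of all genes were. In the repair list of 50 genes 5 fell and 1 rose, beside the same shares of all genes. Brca1, Rad51ap1 and Exo1 of homologous recombination fell by 1.45-fold to 1.50-fold, Claspn, a mediator of checkpoint signalling, fell 1.46-fold, and Ung, which excises uracil, fell 1.53-fold. Neil1, a glycosylase for oxidised bases, rose from 1354 and 1275 to 2199 and 2288 (1.71-fold, adjusted p 0.013).

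**Figure D4:**
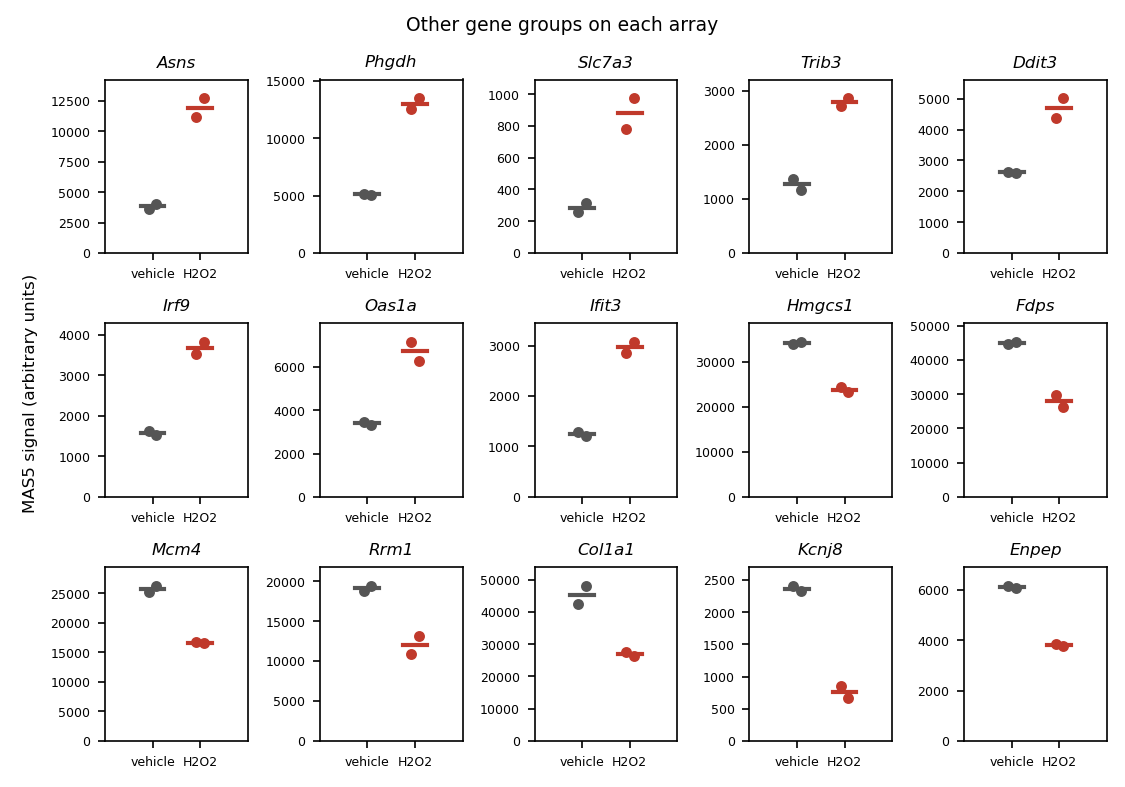
MAS5 signal (arbitrary units, linear axes from 0) on the 2 vehicle arrays (grey) and 2 hydrogen peroxide arrays (red), with group means as lines, for 5 ATF4 response genes, 3 interferon-stimulated genes and 7 genes that fell. The groups do not overlap in any panel; Asns rises 3.10-fold, Mcm4 falls 1.55-fold and Kcnj8 falls 3.13-fold.

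More matrix genes fell than rose. Of 53 tested 12 fell (22.6%, against 2.91% of all genes) and 3 rose (5.66%, against 4.08%), the median was -0.24, and 8 to 11 fell without 1 of the 4 arrays, though 0 fell without the variance trend. Col1a1, the alpha chain of type I collagen, went from 42337 and 48001 to 27476 and 26449 (1.67-fold lower, adjusted p 0.0013), and Col1a2, Col3a1 and Col14a1 fell by 1.49-fold, 1.62-fold and 1.83-fold. Lox, which cross-links collagen, went from 32381 and 34309 to 20930 and 20497 (1.61-fold lower). Vcan, a large proteoglycan, went from 4241 and 4798 to 1970 and 2452 (2.05-fold lower), and the fibulins Fbln1, Fbln2 and Fbln5 fell by 1.38-fold to 1.84-fold. Fn1, fibronectin, overlapped between groups and did not pass (log2 -0.16). The exceptions rose: Col18a1, the parent of endostatin, from 240 and 143 to 942 and 1030 (5.32-fold, adjusted p 0.00179), Serpinf1, a secreted antiangiogenic serpin, 1.67-fold, and P4ha3, a prolyl hydroxylase subunit, 1.82-fold. The vehicle geometric mean of Col18a1 lay under 194, the lowest tested, so its fold is imprecise. Beside these falls stood higher 3' to 5' signal ratios on the peroxide arrays. The ratio for Tfrc was 1.85 and 2.14 with vehicle and 3.54 and 2.30 with peroxide, that for Pcx 1.66 and 1.59 against 2.89 and 2.03, and that for actin 1.22 and 1.26 against 1.35 and 1.32, while that for Gapdh was 0.825 to 0.844 on all 4. Their part in the falls of this and the preceding groups was not tested.

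Genes of the renin cell's own machinery fell where they passed. Of 49 tested genes of the angiotensin system, renin cell channels, cAMP signalling and renin promoter regulation 10 fell and 0 rose, against 2.91% and 4.08% of all genes. The median was -0.07, and 13 more were too dim. Without 1 of the 4 arrays 1 to 4 fell, and 0 fell without the variance trend. Kcnj8 and Abcc9 encode the pore and the sulfonylurea receptor of the vascular ATP-sensitive potassium channel. Kcnj8 went from 2405 and 2327 to 850 and 672 (3.13-fold lower, adjusted p 0.00255) and Abcc9 from 695 and 769 to 364 and 416 (1.88-fold lower, adjusted p 0.0415). Enpep, aminopeptidase A, which trims angiotensin II, went from 6153 and 6061 to 3857 and 3758 (1.60-fold lower, adjusted p 0.00665). In the cAMP arm, which drives renin secretion and transcription, Gnas, the stimulatory G protein, fell 1.30-fold and Adcy5, an adenylyl cyclase, 1.54-fold. The phosphodiesterases Pde3b and Pde4d, which break cAMP down, fell 1.35-fold and 1.37-fold. Among regulators of the renin promoter, Foxd1, a factor of the stromal renin lineage, went from 2313 and 1992 to 1001 and 1185 (1.97-fold lower), Nr2f1 fell 1.87-fold and Vdr, the vitamin D receptor, 1.42-fold. Of the smooth muscle and pericyte genes Notch3 rose 2.84-fold, from 417 and 505 to 1206 and 1410, and was the 1 of 21 to pass. Acta2, smooth muscle actin, had 6147 and 6113 against 9379 and 9493 and missed the threshold (log2 0.62, adjusted p 0.0573), and Tagln did not pass (0.92, adjusted p 0.126).

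Immediate-early genes, which respond first to growth factor and stress kinases, split. Of 30 tested 7 rose and 2 fell, against 4.08% and 2.91% of all genes. Egr1 went from 3153 and 3107 to 8491 and 8209 (2.67-fold, adjusted p 0.00019), and Egr3 from 310 and 307 to 1036 and 1067 (3.41-fold, adjusted p 0.00373). Dusp4 and Dusp6, phosphatases that inactivate MAP kinases, rose 1.83-fold and 1.77-fold, and Fosl1, a partner of Jun, 1.57-fold. Nr4a2 and Klf2 fell 1.84-fold and 1.47-fold, and Fos did not pass (0.32, adjusted p 0.21). No other tested probe set of Nr4a2 passed (log2 -0.46 to -0.28), nor did a second of Fosl1 (0.25, adjusted p 0.471). Egr1 and Egr3 were also called under each alternative tried, and the other rises were lost without 1 or more arrays.

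Of 28 NF-kappaB and cytokine genes 3 rose (10.7%, against 4.08% of all genes) and 2 fell (7.14%, against 2.91%). At an unadjusted p under 0.05, 12 were higher and 4 lower, where 5034 of all 22519 probe sets passed in either direction. Adjusting over 1 probe set per gene called 7 higher and 3 lower, where 769 and 501 of all 10892 genes were. Lcn2, an iron-carrying lipocalin, went from 86 and 39 to 322 and 289 (5.24-fold, adjusted p 0.0042). It was tested only because of its high signal on the interleukin arrays (geometric mean 8352), since its geometric mean over the 4 compared arrays, 133, lies under the lowest tested, 194. Saa3, an acute-phase protein, rose 2.12-fold and Ptgs2, cyclooxygenase 2, 1.70-fold. Il6 (0.75, adjusted p 0.216), Ccl2 (0.18, 0.321) and Nfkbia (0.26, 0.123) did not pass. Cxcl13, a chemokine that attracts B cells, fell from 7247 and 6133 to 2434 and 2189 (2.89-fold lower, adjusted p 0.000808), and Cxcl12, a chemokine of stromal cells, fell 1.26-fold. Of 28 members 19 were lower with peroxide than with interleukin and 0 higher, where 6.30% and 4.06% of all genes were. In the hypoxia and glycolysis list, Adm, adrenomedullin, rose 2.27-fold from 771 and 776 to 1997 and 1548, Ero1a rose 1.65-fold, and the oxygen-sensing Egln3 and Kdm3a fell 1.38-fold and 1.40-fold, with 27 of 32 not passing. Of 40 tested lysosome and autophagy genes 4 rose and 2 fell. Among them Ctsl rose 1.54-fold and Ctsh fell 2.02-fold, from 13179 and 11727 to 6790 and 5575. Of 29 ribosome genes the nucleolar factors Ncl, Fbl, Ddx21 and Rrs1 rose by 1.39-fold to 1.44-fold and none fell, and of 49 oxidative phosphorylation genes Ndufa4 alone passed, 1.25-fold lower. Of 31 TGF-beta and BMP genes, Ltbp2, which binds microfibrils, rose 2.97-fold, and Id2 and Inhbb fell 1.73-fold and 1.44-fold. Ltbp2 started from a vehicle geometric mean of 183, under the lowest tested. The counts in these last lists stand beside 4.08% of all genes higher and 2.91% lower.

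Of the 25 largest rises, 14 started from a vehicle geometric mean under 194, the lowest tested, so they passed the signal filter through arrays on which they were high and their folds are imprecise. The largest that passed under every alternative were 1700007K13Rik, from 102 and 88.4 to 1470 and 1676 (log2 4.05, SE 0.27), and Atg9b, a membrane protein of autophagy, from 99.9 and 71.1 to 589 and 813 (log2 3.04, SE 0.38). Both had vehicle signals under 194, and the alternatives use the same arrays, so passing them is no separate support. Itgb4, an integrin of hemidesmosomes, went from 120 and 70.8 to 431 and 474 (4.89-fold), and Cdsn, a cell adhesion protein of skin, from 93.0 and 164 to 545 and 682 (4.93-fold). Ltc4s, leukotriene C4 synthase, went from 86.5 and 202 to 489 and 729, and Cox6a2, a muscle isoform of cytochrome oxidase, from 219 and 174 to 748 and 773 (3.90-fold). Reep6, a protein that shapes endoplasmic reticulum membranes, rose 4.08-fold, and Gdf9, Pla2g2e, Gna15 and Enho rose by 3.37-fold to 5.22-fold, Gdf9 with a geometric mean over the 4 arrays of 136, under the lowest tested. At such low signals the vehicle arrays could differ by over 2-fold from each other, as those of Ltc4s did, and the log2 changes carry SEs of 0.25 to 0.51 log2 units.

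Among the 25 largest falls, Stc1, the secreted hormone stanniocalcin, went from 2703 and 2641 to 1090 and 935 (2.65-fold lower), and Scin, an actin-severing protein, from 4707 and 4979 to 1960 and 2059 (2.41-fold lower, adjusted p 0.000661). Fap, a protease of activated fibroblasts, went from 3200 and 2551 to 1225 and 1193, and Npr3, the clearance receptor of natriuretic peptides, from 2987 and 2904 to 1234 and 1271 (2.35-fold lower). The matricellular Ccn3, Sparcl1 and Aspn fell 2.15-fold, 2.32-fold and 2.25-fold, and Ccl8, a chemokine, 2.13-fold. S100g, a calcium-binding protein, went from 3421 and 2441 to 1150 and 809. A2m, Mfsd2a, Mturn, Tle4, Abca9, Cfp, Angpt4, Batf3 and Mup5 fell by 2.20-fold to 2.80-fold. Mup5 belongs to a family of near-identical genes, so its probe set may read several. ND5, a subunit of complex I encoded in mitochondrial DNA, fell from 33406 and 26277 to 12236 and 12505 (2.40-fold lower, adjusted p 0.00595).

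**Figure D5:**
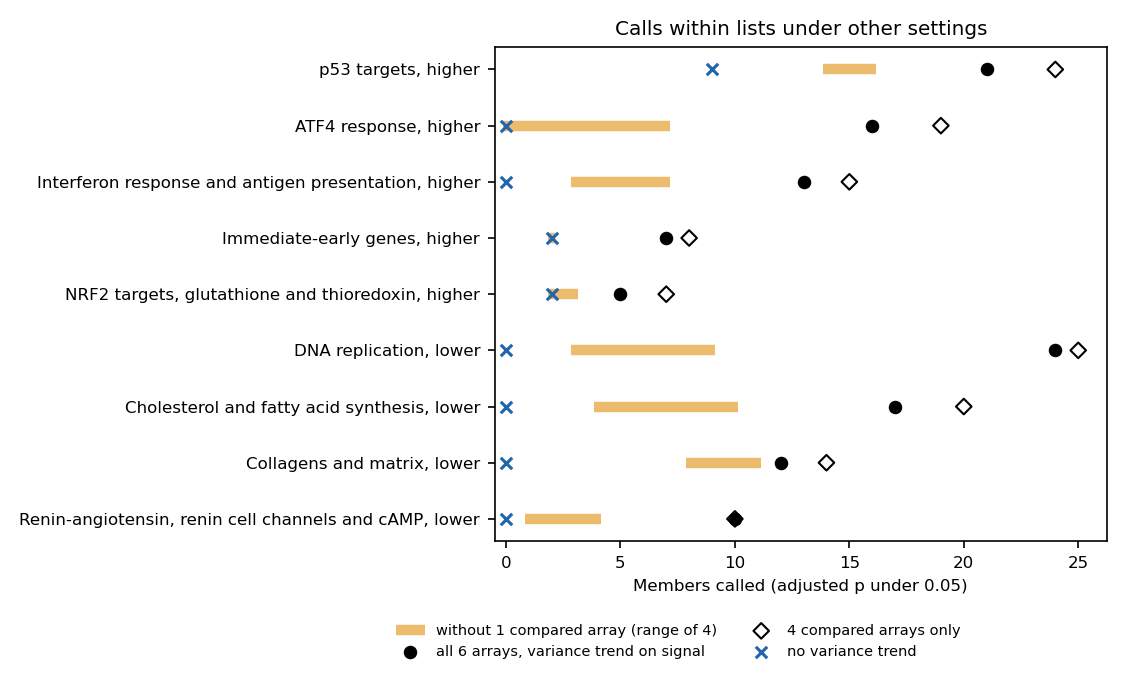
Number of members called (x axis, adjusted p under 0.05) in 9 lists and directions, with all 6 arrays (black dots), with the 4 compared arrays alone (open diamonds), without each of the 4 arrays in turn (orange range) and with no variance trend (blue crosses). The p53 list had 21 rises, 14 to 16 without an array and 9 without the trend. The ATF4 and interferon rises, and the replication, cholesterol, matrix and renin cell falls, had 0 calls without the trend.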

How the data were processed

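Signals were the MAS5 intensity values the authors deposited in the series table (Affymetrix Mouse Genome 430 2.0 arrays), per the submitters' processing notes, and were scaled by the authors to the same trimmed mean on each array, as the values show. No source used here gives the MAS5 version. Log2 signals of all 6 arrays were fitted with limma 3.58.1 in R 4.3.3 (lmFit, eBayes with a variance trend on mean signal), without further normalization. The 64 control probe sets were left out, as were probe sets under the median mean log2 signal (geometric mean below 194). Of the non-control probe sets, 34945 had 1 gene symbol, 932 had several and 9160 had none. Genes were read from their brightest probe set. The comparison, gene lists and named genes were chosen with earlier results of these data known. Named genes were the 25 largest rises and falls among called genes with non-overlapping groups, plus list members. All 27 lists and 4 marker lists held 867 tested genes of 1015 for the former. The only measure of precision is the number of arrays, 2 a group. The script was tested on simulated data. Alternatives covered scaling, filters, the variance model, the replicate block and leaving out arrays.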

Additional observations from a re-analysis of the deposited data

How the results depend on the processing

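Of 237 named genes called, 21 passed under every alternative that could test them and 0 changed sign. They included Cdkn1a, Mdm2, Eda2r, Aen, Trp53inp1, Dcxr, Ephx1, Gsto1, Ccnd1, Egr1, Egr3 and Col18a1 among rises and Scin, Tmem255a and Prss35 among falls. The number of arrays, 2 a group, limits all counts. Against 1282 called probe sets (686 higher, 596 lower, 761 genes), requiring a 2-fold change left 291 (198, 93, 163 genes), no filter on signal 762 (409, 353, 463 genes) and no variance trend 57 (45, 12, 34 genes). Without the probe sets open to cross-hybridisation 825 were called (422 higher), and fitting 1 probe set per gene called 1270 genes. Leaving out 1 array of the 6 gave 242 to 1767 called, 154 to 950 higher, 88 to 817 lower and 137 to 1040 genes. The cause of these shifts was not tested, beyond the fewer probe sets or arrays that some settings test.

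Replicate numbers were in the titles, but with 2 pairs they do not establish pairing, and the correlation of same-numbered deviations between peroxide and vehicle was 0.107. With the replicate number as a block 1170 probe sets were called (624 higher, 546 lower, 689 genes). The log2 change of Atf4, -0.03, became 0.026 with quantile normalization and ranged from -0.072 to 0.0093 without 1 array, and that of Hspa5, -0.04, became 0.056 and ranged from -0.10 to 0.024, none of them called.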

Other observations

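The genes grouped here were chosen after their values were seen, so the counts are descriptions. Of 16 tested genes that ERK signalling is known to induce, 10 were higher with peroxide and 0 lower. Etv4, an ETS factor, went from 535 and 701 to 1958 and 1859 (log2 1.64, adjusted p 0.00179). Its relative Etv5 (0.56), the feedback inhibitor Spry2 (0.53) and Phlda1 (0.42) rose with Egr1, Egr3, Fosl1, Dusp4, Dusp6 and Ccnd1. Of 11 tested host genes of small nucleolar RNAs 4 were higher, namely Zfas1 (1.06), Snhg12 (0.97), Snhg4 (0.61) and Gas5 (0.54), and 7 did not pass.

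Of 11 receptors and ligands of growth factors picked because they were called, 3 were higher and 8 lower, a split that the picking itself fixes. Met, the hepatocyte growth factor receptor, went from 169 and 118 to 370 and 412, and Nrp1, a co-receptor of VEGF and semaphorins, from 1857 and 1497 to 3436 and 3093. Nrp2, its relative, went the other way, from 1190 and 1144 to 530.1 and 636. Ghr, the growth hormone receptor, fell from 13115 and 12825 to 8101 and 8054, and Igf1, its main target, from 7360 and 7965 to 4769 and 4176. Myh9, the heavy chain of nonmuscle myosin, fell from 32520 and 34701 to 19091 and 19603 (log2 -0.79, adjusted p 0.000569), with Palld (-0.86) and Ehd2 (-0.93), which bind actin and caveolae. It is among 7 lower, 0 higher and 2 not passing of 9 genes of actin and caveolae, also picked after their values were seen.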
